A study of Homo sapiens with 4 samples.

Results

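Genes with exactly 2 poly(A) sites in the 3′ UTR were sorted by where the binding motif of cleavage factor Im (CFIm), UGUA in RNA, stood in the 100 nt before each site. The genes described here carry the motif before the distal site and not before the proximal one. There were 442 of them among 1627 genes with 2 sites, and they are called distal-only genes. Another 282 genes had the motif before the proximal site only, 586 before both sites and 317 before neither. The poly(A) sites came from PAS-seq, which reads the 3′ ends of polyadenylated RNA, in the esophageal squamous cell carcinoma (ESCC) lines KYSE30 and TE-1. Each line gave 1 library after 24 h with l-lactate at 20 mM and 1 from control cells, labelled PBS. The titles call the control libraries K30 and TE1, although a label on them gives KYSE32 and TE-3. The titles and the study's methods were followed. Were that label right, each comparison would also be one between lines, and the files used here cannot tell these apart. With 1 library per condition no spread between cultures can be given, so no difference was tested and each value is a description of these 4 libraries. Intervals are given for counting error only.

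The 4 libraries held 7174991 to 10393799 tags, and the deposited level of a site, called TPM, is its tags per 1000000 tags of the library. Of 14055 sites that exceeded TPM 5 in any library, 11672 had their dominant position in an annotated 3′ UTR of GENCODE 44. Among squamous markers, SFN stood between TPM 205.5 and 312.7 in the 4 libraries. KRT6A and TP63 were listed in KYSE30 only and KRT17 in TE-1 only, while KRT5 and KRT14 were listed in neither line. The sites of SFN and TP63 lay 1 and 4 nt past the annotated gene end and so counted as outside the 3′ UTR. When any overlap of a site's cluster with the 3′ UTR was accepted, the distal-only genes numbered 472.

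CFIm is formed by NUDT21, which contacts UGUA, together with CPSF6 or CPSF7. It binds upstream of the cleavage site and helps recruit the factors that cut the RNA and add the poly(A) tail, and it is known as an enhancer of distal sites in many human cells. Where both sites lie in the same stretch of 3′ UTR, use of the distal site leaves a longer 3′ UTR on the mRNA. The comparison of distal-only with proximal-only genes asks whether l-lactate moved usage toward the site that carries the motif.

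The motif copies nearest to the distal site are given for the 10 distal-only genes named first in the results, with 30 nt of the GRCh38 sense strand around each. They are written as DNA, and the capitals mark the motif.
HADH (chr4:108035108-108035137, plus strand): tataatataaaatTGTAatacactcaaatg
HDLBP (chr2:241227341-241227370, minus strand): atatgcaaacatgTGTAaaggctcatgaat
MAP3K20 (chr2:173267438-173267467, plus strand): agatatttgtgtcTGTAtgatggtcagagt
CLSPN (chr1:35734271-35734300, minus strand): gttttaatatgtaTGTAgtttttcaataaa
HNRNPUL2 (chr11:62712667-62712696, minus strand): attctggcgaaaaTGTAggcaaagtagctt
TMEM237 (chr2:201620197-201620226, minus strand): attcagatttttaTGTAcaataaagaagtt
DNAJB6 (chr7:157417377-157417406, plus strand): cctaaacacatcaTGTAttttaaatgccac
POLR2M (chr15:57717481-57717510, plus strand): tttaccagttatgTGTAtaacaatatggtt
HSPA13 (chr21:14371134-14371163, minus strand): attcatgttttaaTGTAaataaataccatt
ESYT2 (chr7:158731014-158731043, minus strand): acgtgacagtgcaTGTAtttattcaataaa

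For contrast, 3 proximal-only genes are shown with the copy before their proximal site.
ZC3H14 (chr14:88611785-88611814, plus strand): ttggaagttttcaTGTActgatgaaagata
SRSF6 (chr20:43461509-43461538, plus strand): aaagcttgagttaTGTAagatttaaataaa
GART (chr21:33524021-33524050, minus strand): caaactgttgactTGTAaaatcaataaagt

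In the distal-only genes the nearest copy ended a median of 41 nt before the distal site, with quartiles of 28 and 60 nt and limits of 4 and 97 nt. A lone copy stood before the distal site in 259 genes (58.6%), 2 copies in 132 and 3 or more in 51. The 692 copies were most frequent 41 to 50 nt before the site, where 109 of them (15.8%) lay, and 26 lay 11 to 20 nt before it. The motif was searched on the sense strand as the letters TGTA, whose last A can be the first letter of a poly(A) signal. It is short and common, since 56.8% of all 11672 sites of 3′ UTRs had it in the same window. Among genes with 2 sites it preceded 63.2% of distal sites (1028, Wilson 95% interval 60.8 to 65.5) and 53.4% of proximal sites (868, 50.9 to 55.8). These intervals count genes, not tags, and leave out that the 2 sites of a gene are paired. A match describes the sequence and does not show that CFIm binds there.

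**Figure D1:**
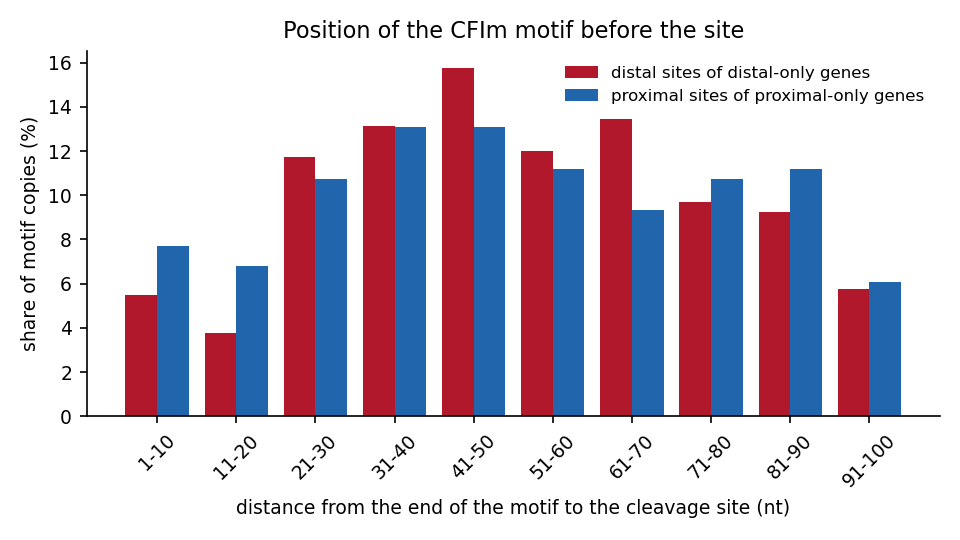
Share of motif copies (%) by the distance in nt from the end of the copy to the cleavage site, for the 692 copies before distal sites of distal-only genes and the copies before proximal sites of proximal-only genes. Copies before distal sites were most frequent 41 to 50 nt from the site (15.8%).

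The proximal and distal sites of the distal-only genes were a median of 1828 nt apart along the genome, with quartiles of 1038 and 3407 nt, against a median of 1469.5 nt in the proximal-only genes. Both sites lay in the same stretch of 3′ UTR in 385 distal-only genes (87.1%). In the other 57 they lay in different annotated stretches. The canonical signal AAUAAA stood in the 50 nt before 69.2% of the distal sites (64.8 to 73.4) and 60.9% of the proximal sites (56.2 to 65.3). In the proximal-only genes it stood before 75.5% of distal sites and 141 of the 282 proximal sites (44.2 to 55.8%). The window before the distal site held a median of 31% G and C in distal-only genes, against 35% before the proximal site. The proximal-only genes had 34% before the distal and 33% before the proximal site, so in both classes the window with the motif had the lower median. The classes were set by the motif in these same windows, and most of its letters are A or T. The lower median is thus in part built into the classes. The class of 421 distal-only genes (95.2%) stayed the same whichever library gave the dominant position.

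Distal usage is the TPM of the distal site as a percentage of the TPM of both sites. A change was measured in a line where each site exceeded TPM 5 in at least 1 library of that line. This held for 335 distal-only genes in KYSE30 and 343 in TE-1, with 239 measured in both lines and 3 in neither. In the control libraries the measured genes had a median distal usage of 57.7% in both lines, against 49.0% and 48.6% in the proximal-only genes. Changes are percentage points of usage after l-lactate less the usage of the control, and a gene is called lengthened or shortened from 10 points in either direction. These names follow distal usage alone, also where the sites lie in different stretches and the 3′ UTR need not change in that direction.

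In KYSE30 the distal-only genes were balanced, with distal usage higher after l-lactate in 166 (49.6%) and lower in 169. It was higher in 44.2% of all 1269 measured genes with 2 sites. The median change of the distal-only genes was -0.01 points, with quartiles of -3.23 and 2.49. There were 10 lengthened genes (2.99%), beside 3.7% of all measured genes with 2 sites, and 21 shortened genes (6.27%), beside 5.75% of all. The counting interval of the change lay wholly above 0 in 30 of the 335 genes and wholly below 0 in 48. Among all 1269 measured genes with 2 sites these counts were 138 and 195.

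In TE-1 the distal-only genes leaned toward the distal site, with higher usage after l-lactate in 215 (62.7%) and lower in 128. All 1272 measured genes with 2 sites leaned the same way, with higher usage in 55.3%. The median change of the distal-only genes was 1.497 points, with quartiles of -2.13 and 5.15. There were 29 lengthened genes (8.45%), beside 6.84% of all measured genes with 2 sites, and 14 shortened genes (4.08%), beside 4.95% of all. The counting interval lay wholly above 0 in 91 of the 343 genes and wholly below 0 in 43. Among all 1272 measured genes with 2 sites these counts were 277 and 186. The interval of a gene reached a median of 5.21 points to each side, and 5.65 points in KYSE30, so that the median shift was smaller than the counting error of most members.

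Set beside the proximal-only genes, the distal-only genes differed little in KYSE30 and by more in TE-1. The median change of the proximal-only genes was -0.18 points in KYSE30 and -0.16 points in TE-1. The medians of the classes were thus 0.18 points apart in KYSE30 and 1.66 points apart in TE-1, with the distal-only genes higher. The means were -0.27 and 1.15 points apart, so in KYSE30 the sign depended on the summary used. Of 221 proximal-only genes measured in KYSE30, 10 were lengthened (4.52%) and 9 shortened (4.07%), beside 2.99% and 6.27% of the distal-only genes. Of 228 measured in TE-1, 17 were lengthened (7.46%) and 16 shortened (7.02%), beside 8.45% and 4.08%. Usage was higher with l-lactate in 62.7% of the distal-only and 47.4% of the proximal-only genes of TE-1, and in 49.6% and 46.2% of those of KYSE30. With a motif window of 50 nt the TE-1 difference of medians shrank to 0.21 points, and the median change of the distal-only genes to 0.31 points.

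The distal-only genes were also set beside the genes without the motif before either site. The median change of the latter was 0.32 points in KYSE30 and 0.78 points in TE-1, and 66.4% of them had higher distal usage with l-lactate in TE-1. The median of the distal-only genes lay 0.33 points below theirs in KYSE30 and 0.72 points above it in TE-1. The mean of the distal-only genes less theirs was -0.83 points in KYSE30 and 0.01 points in TE-1. In KYSE30 the genes without the motif had 14 lengthened (5.74%) and 5 shortened (2.05%), against 2.99% and 6.27% of the distal-only genes. In TE-1 the genes without the motif had 17 (7.05%) and 6 (2.49%), against 8.45% and 4.08%. Genes with the motif before both sites had medians of -1.24 and -0.17 points. Across all measured genes with 2 sites the medians were -0.45 and 0.43 points.

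**Figure D2:**
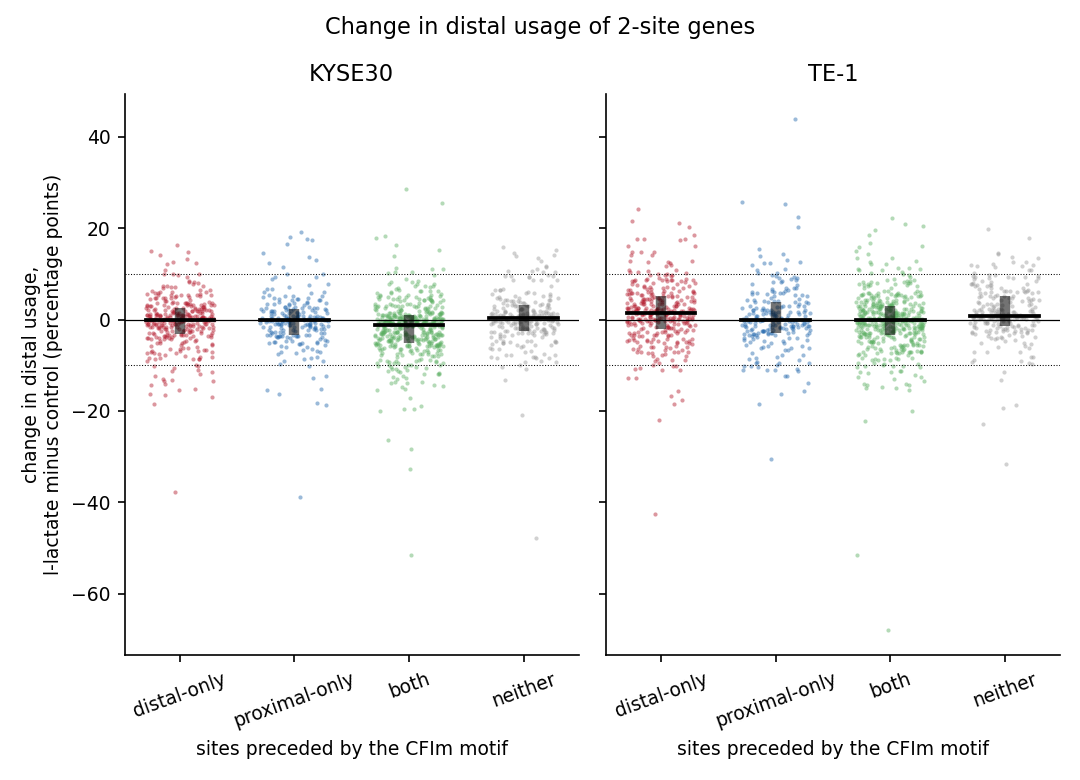
Change in distal usage (l-lactate minus control, percentage points) of genes with 2 sites, by which sites the CFIm motif precedes, in each line. Points are genes, black lines are medians, thick bars span the quartiles and dotted lines mark 10 points. The medians of the distal-only genes were -0.01 points in KYSE30 and 1.497 points in TE-1.

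**Figure D3:**
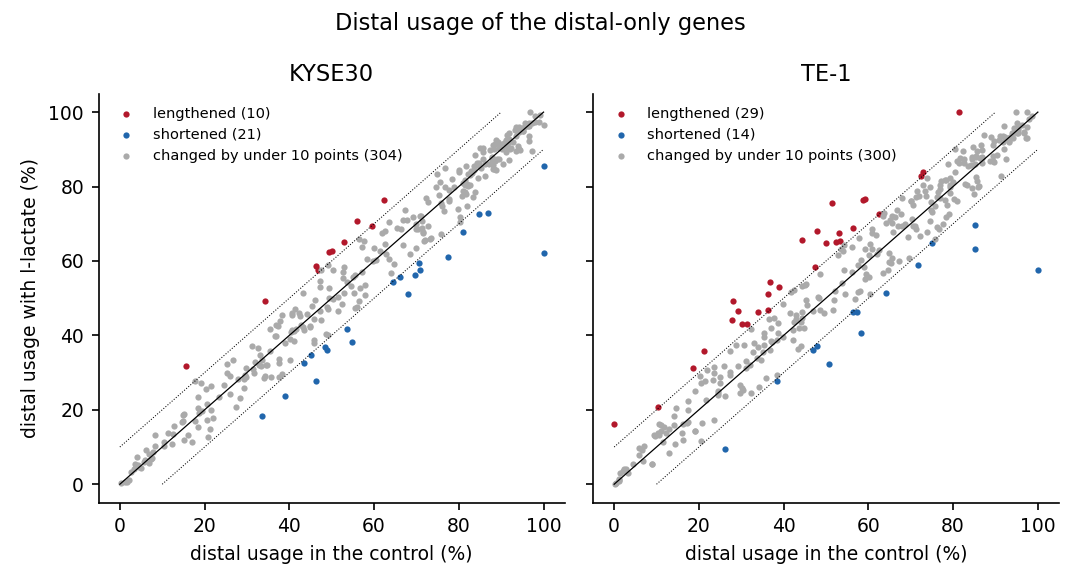
Distal usage (%) of the distal-only genes in the control library and with l-lactate, for 335 genes in KYSE30 and 343 in TE-1. Dotted lines mark a difference of 10 points, past which 10 genes were lengthened and 21 shortened in KYSE30, and 29 and 14 in TE-1.

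Among 199 distal-only genes with a summed TPM above 20 in all 4 libraries, 80 had higher distal usage with l-lactate in both lines and 61 lower. Of 132 proximal-only genes at that level, 43 were higher in both lines and 45 lower. Over all 925 genes with 2 sites measured in both lines, at any summed TPM, 309 were higher in both and 319 lower. The 5 distal-only genes with the highest smaller rise were HADH, HDLBP, MAP3K20, CLSPN and HNRNPUL2. HADH, a mitochondrial enzyme of fatty acid oxidation, has its sites at 108034491 and 108035168 on chromosome 4, and its distal window held 2 motif copies. Its distal usage was 43.3% in the control and 51.4% with l-lactate in KYSE30, and 27.9% and 44.03% in TE-1. The change was 8.09 points in KYSE30 (counting interval -1.79 to 17.8) and 16.2 points in TE-1 (9.74 to 22.5). In TE-1 the proximal site of HADH went from TPM 34.3 to 24.9 while the distal site went from 13.3 to 19.6. HDLBP encodes the RNA-binding protein vigilin. Distal usage of HDLBP was 38.3% and 45.6% in KYSE30 and 27.3% and 35.7% in TE-1. The changes of 7.25 points (0.83 to 13.6) and 8.44 points (4.67 to 12.2) were alike in size, and both intervals lay above 0.

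MAP3K20, a stress-activated kinase, is cut at sites 40375 nt apart in different stretches of 3′ UTR. The distal share was 50.4% and 57.6% in KYSE30 and 20.5% and 27.3% in TE-1. The levels of the lines did not overlap, although the changes were 7.25 and 6.82 points. The counting interval was -0.58 to 15.0 points in KYSE30, which included 0, and 2.33 to 11.3 points in TE-1. CLSPN, an adaptor of the replication checkpoint, had 5 copies of the motif before its distal site. Its distal usage was 46.7% and 57.6% in KYSE30 and 60.95% and 67.6% in TE-1. The change was 10.9 points in KYSE30 (0.95 to 20.5) and 6.67 points in TE-1 (-1.07 to 14.3), so the latter was within counting error. HNRNPUL2, related to the nuclear RNA-binding protein hnRNP U, had a distal usage of 36.8% and 42.9% in KYSE30 and 21.9% and 30.6% in TE-1. The changes of HNRNPUL2 were 6.08 points (1.25 to 10.9) and 8.71 points (3.70 to 13.8). In both lines its proximal site was at a lower TPM with l-lactate and its distal site at a higher one.

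The 5 distal-only genes with the largest smaller fall were TMEM237, DNAJB6, POLR2M, HSPA13 and ESYT2, and all 10 of their counting intervals lay below 0. TMEM237, a protein of the ciliary transition zone, has sites at 201623802 and 201620185 on chromosome 2. Its distal usage was 33.5% in the control and 18.4% with l-lactate in KYSE30, and 26.2% and 9.55% in TE-1. The changes were -15.2 points (-24.1 to -5.75) and -16.6 points (-23.4 to -9.67), and the gene was shortened in both lines. DNAJB6, a co-chaperone of the DnaJ family, ends at sites 31110 nt apart, also in different stretches. The distal share was 66.2% and 55.6% in KYSE30 and 20.4% and 11.7% in TE-1. The libraries with l-lactate were below their controls by 10.6 and 8.78 points, within very different levels of the lines.

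POLR2M, a protein associated with RNA polymerase II, had a distal usage of 71.0% and 57.6% in KYSE30 and 69.7% and 60.9% in TE-1. HSPA13, of the Hsp70 family, went from 84.8% to 72.5% and from 91.3% to 82.7%. In HSPA13 the distal site stayed between TPM 27.2 and 42.4, and the proximal site went from TPM 5.25 to 10.3 in KYSE30 and from 3.66 to 8.86 in TE-1. ESYT2 tethers the endoplasmic reticulum to the plasma membrane. The distal share was 43.6% and 32.5% in KYSE30 and 43.99% and 37.2% in TE-1. Its distal window was richer in G and C (39%) than its proximal one (24%), whereas that of HADH was poorer (21% against 48%).

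**Figure D4:**
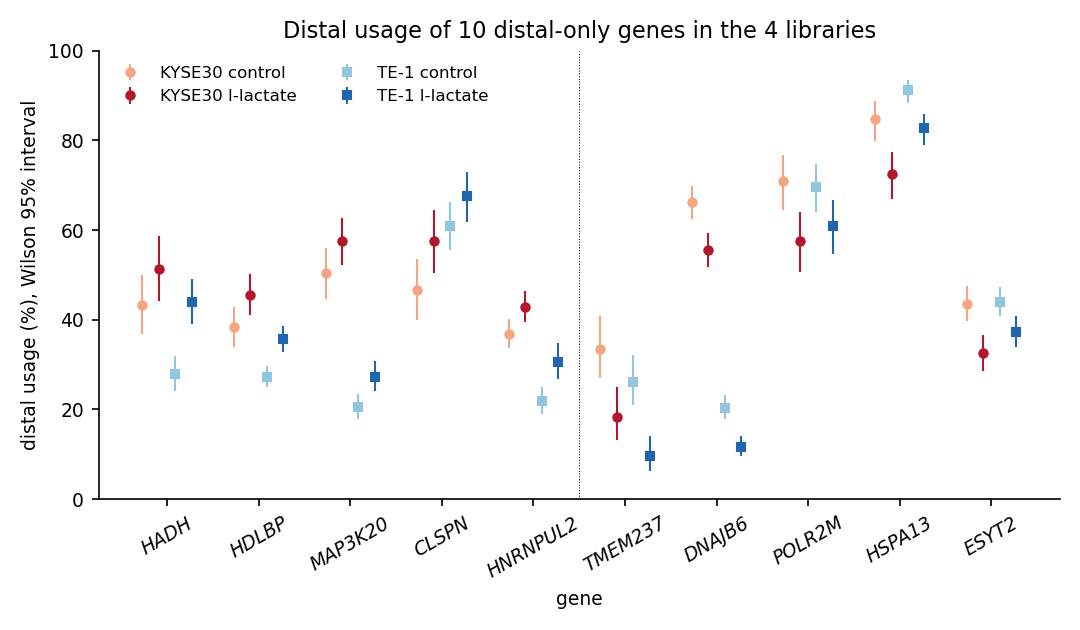
Distal usage (%) of 10 distal-only genes in each of the 4 libraries, with Wilson 95% intervals of the tags. The 5 genes left of the dotted line were higher with l-lactate in both lines and the 5 right of it lower, down to 9.55% for TMEM237 in TE-1.

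Changes were also ranked within each line, and some of the genes named this way changed in the same direction in both lines. In KYSE30 the genes with summed TPM above 20 and the highest rises included MRTO4 and CLSPN. MRTO4, a ribosome assembly factor, went from 62.2% to 76.5% in KYSE30 and from 61.9% to 66.9% in TE-1. The deepest falls were in TMEM167A, SLC30A1 and MTA3. TMEM167A, a small membrane protein of the secretory pathway, went from 46.4% to 27.8% in KYSE30, a change of -18.5 points (-23.4 to -13.5), and from 23.5% to 17.2% in TE-1. SLC30A1, a zinc exporter, fell by 16.4 points from 77.4% in KYSE30 and went from 78.6% to 75.1% in TE-1. MTA3, a subunit of the NuRD chromatin complex, went from 39.0% to 23.7% in KYSE30, and its distal site was at TPM 2.50 and 1.65 in TE-1.

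In TE-1 the corresponding rises were in MED25, BORA and TTC39C. MED25, a subunit of the Mediator complex, went from 44.3% to 65.7% in TE-1, a change of 21.5 points (12.6 to 29.8), and from 47.3% to 53.0% in KYSE30. BORA, an activator of the mitotic kinase Aurora A, went from 28.1% to 49.2% in TE-1, while its distal site was not listed in KYSE30. TTC39C went from 47.9% to 68.1%. The falls were in TMEM237, GCLC and SETDB1. GCLC, the catalytic subunit of the first enzyme of glutathione synthesis, went from 64.1% to 51.3% in TE-1, a change of -12.8 points (-18.0 to -7.46), and from 63.6% to 60.4% in KYSE30. In TE-1 its distal site stood at TPM 39.4 and 41.2 and its proximal site at 22.0 and 39.1. SETDB1, a histone methyltransferase, went from 71.6% to 58.9% in TE-1 and from 90.4% to 86.0% in KYSE30.

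The deepest falls of all lay below that TPM and in genes with a site missing from a library, and are named here after their values were seen. The proximal site of FAM76A was not listed in the KYSE30 control, where 50 tags were assigned to the gene, and the usage went from 100% to 62.2%. That of IGSF3 was absent from the list of the TE-1 control. The usage went from 100% to 57.5% on 66 and 106 tags. The highest rise was also at low TPM, in ITSN1, a scaffold of endocytosis, which went from 51.5% to 75.5% in TE-1 on 138 and 94 tags and from 69.9% to 68.5% in KYSE30. A site that a library did not list was taken as 0, and the lowest listed TPM was 1.06 to 1.12, depending on the library. Such a gap occurred in 4 distal-only genes measured in KYSE30 and 5 measured in TE-1.

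Of the 5 most abundant distal-only genes, 4 used mostly the proximal site. RPL31, RPS28 and RPL28 encode ribosomal proteins. Their distal usage was at most 0.17%, 0.44% and 4.03% in any library, and no change exceeded 1.34 points. The distal usage of PPIA, the peptidyl-prolyl isomerase cyclophilin A, was 10.3% and 10.4% in KYSE30 and 4.40% and 5.50% in TE-1. EIF2S3, a subunit of a translation initiation factor, was the exception, at 50.2% and 49.7% in KYSE30 and 44.3% and 44.8% in TE-1. Its 16206 and 12212 tags in TE-1 set the change between -0.69 and 1.65 points.

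The genes with the most motif copies were VMA21, SNX9 and CLSPN, whose changes were all positive where measured. Those of CLSPN are given above. VMA21, an assembly factor of the vacuolar proton pump, had 6 copies, and its distal usage lay between 92.3% and 96.3% in the 4 libraries, with a change of 0.83 points in TE-1 (-1.31 to 2.91). SNX9, a sorting nexin of endocytosis, had 5 copies and went from 59.1% to 76.8% in TE-1, on 137 and 142 tags, while only its distal site was listed in KYSE30. At the ends of the range of distances stood AIG1, with sites 278708 nt apart, and STX18, with sites 505 nt apart. Nearby clusters had been joined in the deposited data, so closer sites are not seen. AIG1 had only its distal site listed in the KYSE30 control and a usage of 85.6% with l-lactate, against 76.1% and 77.2% in TE-1. STX18, a syntaxin of the endoplasmic reticulum, went from 20.9% to 12.6% in KYSE30 and from 10.3% to 20.7% in TE-1. KIF2C, a mitotic kinesin with sites 514 nt apart, lay between 96.8% and 100% in all libraries.

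The number of motif copies, its position and the distance between the sites were compared within the distal-only genes. In TE-1 the median change was 1.98 points with 1 copy (205 genes), 0.38 points with 2 (105 genes) and 0.95 points with 3 or more (33 genes), so more copies did not go with a larger change. In KYSE30 these medians were 0.04, -0.14 and -0.07 points. Where the nearest copy ended 30 to 60 nt before the site the medians were 0.05 points in KYSE30 and 1.74 points in TE-1, against -0.20 and 0.89 points under 30 nt. Genes with sites at most 2000 nt apart had medians of 0.09 and 1.84 points in KYSE30 and TE-1 cells, and genes with sites farther apart had -0.63 and 0.94 points.

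Base composition moved with these values. In the 210 distal-only genes of TE-1 whose distal window held less G and C than the proximal one, the median change was 1.98 points, and in the other 133 it was 0.50 points. Among genes without the motif the same split gave 1.72 and 0.42 points in TE-1. In KYSE30 the split gave 0.12 and -0.30 points in the distal-only genes. Once a straight line of the change on the difference in G and C was taken out over all genes with 2 sites, the medians of distal-only and proximal-only genes were 1.21 points apart in TE-1 and 0.10 in KYSE30. The part of base composition in the classes was not tested further.

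In the 239 distal-only genes measured in both lines, the changes of the lines had the same sign in 166 (69.5%), beside 67.9% of all 925 genes with 2 sites measured in both. Usage was higher with l-lactate in both lines in 94, lower in both in 72, lower in KYSE30 but higher in TE-1 in 52, and the reverse in 21. The Spearman correlation across these genes was 0.53 and Pearson's r 0.46, where each gene contributes its tags from the same 4 libraries and genes are not independent replicates. MGAT2 and ZNF576 were lengthened in both lines, which is 2 of 239 beside 1.51% of all genes. DCBLD2, PIAS1 and TMEM237 were shortened in both, which is 3 of 239 beside 1.19% of all. No distal-only gene was called in opposite directions.

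MGAT2, an enzyme of N-glycan synthesis, went from 34.3% to 49.3% in KYSE30 and from 36.2% to 51.1% in TE-1. ZNF576, a zinc finger gene, went from 46.2% to 58.6% and from 53.2% to 67.4%. Its KYSE30 interval reached from -1.39 to 25.4 points and thus included 0. DCBLD2, a membrane receptor, went from 86.9% to 72.8% and from 50.7% to 32.2%. PIAS1, a SUMO ligase, went from 53.6% to 41.8% and from 57.2% to 46.3%. The 4 genes other than TMEM237 were each below a summed TPM of 20 in at least 1 library.

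The lines themselves differed more than the conditions. In the controls 64 of the 239 distal-only genes (26.8%) were at least 10 points apart between the lines, beside 27.9% of all genes with 2 sites, and KYSE30 cells had the higher distal usage in 51 of these and TE-1 cells in 13. The median size of the difference between control libraries was 5.24 points, and that of the change with l-lactate was 2.47 points in KYSE30 and 3.46 points in TE-1.

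**Figure D5:**
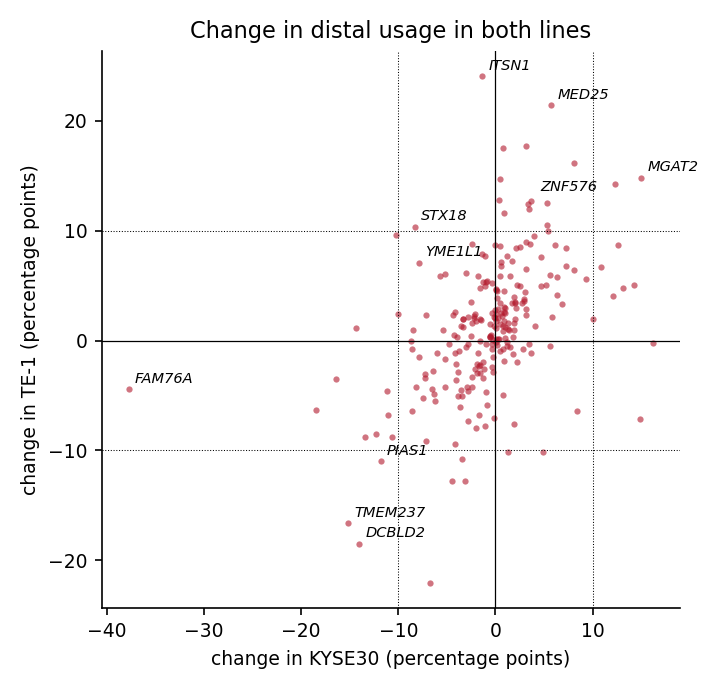
Change in distal usage (percentage points) of the 239 distal-only genes measured in both lines, KYSE30 on the horizontal and TE-1 on the vertical axis. Dotted lines mark 10 points, and 166 genes lay in the quadrants where both changes had the same sign.

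Proximal-only genes included changes of a like size. By the same rule the largest rises were in ZC3H14, SRSF6 and RPL37A and the largest falls in AHCTF1, GGA2 and GART. ZC3H14, a poly(A)-binding protein, went from 23.3% to 40.8% in KYSE30 and from 22.6% to 37.0% in TE-1, away from the site that its motif precedes. SRSF6, a splicing factor, went from 49.0% to 56.8% and from 38.6% to 49.7% on at least 1950 tags a library. AHCTF1, a nuclear pore protein, went from 26.0% to 10.6% and from 23.7% to 7.35%. Its changes of -15.4 and -16.3 points were close to those of the distal-only gene TMEM237.

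The levels of the distal-only genes moved little. The log2 ratio of the summed TPM of both sites, with a pseudocount of 1, had a median of 0.00 in KYSE30 and 0.06 in TE-1. No measured distal-only gene passed 1 on the log2 scale in either direction, and neither did any other of the 1269 and 1272 genes with 2 sites measured in KYSE30 and TE-1. Among all genes above TPM 5 in any library, which include genes hardly listed in a line, 1.94% and 1.72% passed it. In TE-1 the median log2 ratio was -0.02 for the proximal sites and 0.10 for the distal sites, and in KYSE30 0.01 and -0.01. Fewer cells expressing a gene and less RNA per cell cannot be told apart in such bulk libraries.

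Of 21 genes of 3′ end processing, 20 had a listed 3′ UTR site, and FIP1L1 was not listed. PABPN1 was past 1 on the log2 scale, with at most TPM 3.902 and 1 library of each line in which it was not listed, and the other 19 were not. CPSF6, the partner of NUDT21, stood at TPM 140.5 in the control and 177.7 with l-lactate in KYSE30 and at 164.7 and 282.7 in TE-1, log2 ratios of 0.34 and 0.78. NUDT21 stood at TPM 87.5 and 90.7 and at 100.3 and 96.8, and CPSF7 at 94.1 and 98.1 and at 137.8 and 163.5. CSTF3, a subunit of the cleavage stimulation factor, was the distal-only gene of this list. Its distal usage was 37.3% and 42.6% in KYSE30 and 33.9% and 46.4% in TE-1, changes of 5.26 points (-1.15 to 11.6) and 12.5 points (7.69 to 17.3).

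The genes that the study names for this experiment were not distal-only genes by this rule. FDX1, a mitochondrial ferredoxin, had 1 site above TPM 5 in an annotated 3′ UTR, BTF3L4 had 3 and PAWR had 4. FAM98B had 2 sites with the motif before each. Its distal usage was 47.3% and 55.7% in KYSE30 and 55.5% and 53.6% in TE-1. The study itself describes a proximal and a distal site in FDX1, with UGUA before the distal one only. It reports longer 3′ UTRs with l-lactate for these 4 genes in both lines. The study also reports RT-qPCR with primers for the isoforms as further evidence for these results. Its PAS-seq measure was a score for the shift of poly(A) signal in each joined cluster, which differs from the usage of 2 sites given here.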

How the data were processed

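Per the study's methods, reads were trimmed, aligned to GRCh38 (p14 in the labels) with HISAT2, and clustered into poly(A) sites with CAGEr. Nearby clusters were then joined. No gene with 2 sites had them closer than 503 nt, so shifts between closer positions are not seen here. A joined cluster can be wide, with a listed width of up to 736 nt for the distal one of MAP3K20. The motif was sought before its dominant position only. The values deposited by the authors are RPM (tags of a cluster per 1000000 tags of the library), named tpm there. They lie on whole tags per library within their rounding to 3 decimals, which gave the tags behind each value. Depth was 7174991 and 7425554 tags (KYSE30 with l-lactate, control) and 8468958 and 10393799 tags (TE-1).

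Clusters above TPM 5 in any library were placed by the dominant site of their highest library on same-strand 3′ UTRs of protein-coding genes (GENCODE 44). Of 1646 genes with 2 sites, 19 sharing a site with another gene were left out. The motif was sought in the 100 nt upstream of each site. Intervals are Newcombe's for differences and Wilson's for shares, at 95%, and cover counting error only. Those of usage and its change count tags. Those of the share of sites with the motif or a signal count genes. The code that makes the calls was checked on simulated tags with planted changes larger than the size of a call. The simulated tags carried counting error only, so the check does not cover differences between cultures or libraries. With 1 library per condition there was no test.

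Named genes are the 5 highest rises and 5 deepest falls shared by both lines (by the smaller change) among distal-only genes with summed TPM above 20 in all 4 libraries, and the 3 of each in each line with that level in both libraries of the line. Without a minimum of 20 they are the 5 most abundant distal-only genes, the 3 with most motif copies and the 2 longest and 2 shortest distances. To these come 3 rises and 3 falls of proximal-only genes, by the first rule, and genes the study names. A gene that this rule names is not reported here. The members, gene lists and this rule were chosen with earlier results of these data known. Alternatives changed the window, the minimum TPM, the placing of sites, the size of a call, the scaling and the pseudocount, and used Fisher's exact test on tags with Benjamini-Hochberg adjustment at 0.05. That test compares libraries, not conditions. The alternative keeping both sites in the same stretch of 3′ UTR was chosen after seeing the data. The tools were pandas 2.3.3 and NumPy 2.4.6 under Python 3.11.15, with pysam 0.24.0 for sequences, SciPy 1.17.1 for intervals and matplotlib 3.10.9 for figures.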

Additional observations from a re-analysis of the deposited data

Results flagged for a closer look

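The counting intervals of the change in distal usage lay on opposite sides of 0 in the lines for 2 of the 239 distal-only genes measured in both. They lay above 0 in both lines for 13 and below 0 in both for 17. No such counts over all genes with 2 sites are set beside these. STX18 changed by -8.32 points in KYSE30 cells and by 10.4 points in TE-1 cells. YME1L1, a protease of the mitochondrial inner membrane, changed by -7.87 points in KYSE30 cells (97.4% to 89.5%) and by 7.09 points in TE-1 cells (82.3% to 89.4%). These differences between the lines were not tested, since each rests on 1 library per condition.

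Signal was also present in clusters that the rule leaves out. Of the 442 distal-only genes, 51 had a further 3′ UTR cluster of at most TPM 5, and these 53 clusters held a median of 8.92% and at most 37.2% of the level of their gene. The further cluster nearest to the minimum reached TPM 4.98, in EXOC5, and the weaker of the counted sites nearest to it reached TPM 5.00, in ACBD5.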

How the results depend on the processing

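No paired analysis was possible because each group is 1 library. Across the alternatives the medians of distal-only and proximal-only genes were 0.21 to 1.99 points apart in TE-1 cells and -0.22 to 0.51 in KYSE30 cells, and the distal-only genes numbered 296 to 552. With a window of 50 nt the median change of distal-only genes was -0.62 points in KYSE30 and 0.31 points in TE-1 cells, and in TE-1 cells it lay 0.21 points above the proximal-only genes. With 200 nt it was 2.17 points in TE-1 cells. There 9 genes were shortened in each line, and 10 were lengthened in KYSE30 and 28 in TE-1 cells. Shares over all genes with 2 sites are not set beside the counts of these alternatives. Lengthened and shortened genes numbered 32 and 41 (KYSE30) and 45 and 26 (TE-1) at a minimum TPM of 3. At a minimum of 10, 3 were lengthened in KYSE30 cells, and 15 and 9 lengthened and shortened in TE-1 cells. With no filter in the line KYSE30 cells had 17 and 34, and TE-1 cells 39 and 19. With summed TPM above 20, 3 were lengthened in KYSE30 and 7 shortened in TE-1 cells. A call from 5 points gave 43 and 56 and 89 and 47, and a call from 20 points gave 0 and 1 and 4 and 2. Fisher's exact test gave 2 and 13 in KYSE30 cells. Median ratio scaling put the median level of TE-1 cells at 0.02. Removing the trend with G and C turned the sign of RPL28, to -1.19 and -1.30 points. Of the named genes' values under the alternatives, 833 kept their direction and size, 5 moved and 2 reversed. Most were bound to stay, since a change of window or filter leaves the distal usage of a gene as it is. A gene that left its class under an alternative was not counted, as MAP3K20 and TMEM237 with 200 nt. These counts therefore do not measure how firm the named genes are. The causes were not tested.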

Other observations

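Distal-only genes were also grouped by the start of their symbols, as a description without a test. The groups hold 3 to 14 genes, and such starts miss genes of like function, as HADH and YME1L1 among mitochondrial genes. For scale, 3.7% of all measured genes with 2 sites were lengthened and 5.75% shortened in KYSE30, and 6.84% and 4.95% in TE-1. The 6 zinc finger genes had medians of 6.45 points in KYSE30 and 6.10 points in TE-1. ZNF280D and ZNF576 were lengthened among 5 measured in KYSE30, and ZNF576 among 4 in TE-1. The 7 genes named TMEM had medians of -7.29 and -3.13 points. TMEM167A and TMEM237 were shortened among 5 measured in KYSE30, and in TE-1 TMEM237 was shortened and TMEM120B lengthened among 6.

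The 14 genes with symbols of vesicle traffic families, among them RAB11A and VPS41, had medians of -2.35 and 1.41 points over 12 measured genes in each line, with SNX9 and STX18 lengthened in TE-1. The 14 genes of the ubiquitin system had medians of -1.25 and 1.84 points, with RNF114 lengthened in TE-1. The 9 solute carriers had medians of -2.62 and -1.14 points, with SLC9A8 lengthened and SLC30A1 shortened in KYSE30. The 12 genes with symbols in MAP, CDK or PPP had medians of 2.67 and 1.78 points, with MAPK9 shortened in TE-1. The 10 genes with symbols in EIF, RPL or RPS had medians of 0.08 and 0.12 points, with RPS6KB1, a kinase, shortened in TE-1. No call was made in the other groups. These were 6 genes with symbols of RNA-binding families (0.44 and 6.95 points), 6 with symbols in MRPS, NDUF or TOMM (0.10 and -0.16 points) and 3 of chromatin (4.18 and 5.06 points).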
